A study of Mus musculus with 2 samples.

Results

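The AP-1 family, a group of transcription factors that bind DNA as pairs, was read here through 9 genes (Fos, Fosb, Fosl2, Jun, Junb, Jund, Atf3, Maff and Batf). They were chosen by symbol from the deposited feature lists, and 9 of 32589 listed features carried such a symbol, each in a single row and in both libraries. The cells were microglia, the resident macrophages of the brain, from the prefrontal cortex, and the C57BL/6 mice had been given either vehicle or, by oral gavage, corticosterone, which is the chief glucocorticoid hormone of mice. Each group was 1 library of sorted CD45low CD11b+ cells, prepared with a Singleron GEXSCOPE kit for single-cell RNA sequencing, and the series treats the corticosterone group as a depression model of glucocorticoid excess. Dose, duration, age, sex and the number of animals behind a library are not given in the sources used here. With 1 library per group there was no replicate check and no test, intervals cover counting error only, and group and library cannot be told apart. Directions rest on the sample record that ties each matrix to its group.

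AP-1 proteins share a basic leucine zipper, a helix that holds 2 partners together and grips the DNA. A Fos protein has to pair with a Jun protein to bind, whereas Jun proteins can also pair with one another, and ATF, MAF and BATF proteins join the same network with other preferred sites. Several of these genes, Fos, Fosb, Jun, Junb and Atf3 among them, are immediate early genes: existing kinases, acting through factors such as SRF and CREB, switch them on within minutes, and their mRNAs decay quickly. In microglia and other macrophages AP-1 works beside PU.1 and NF-kB at enhancers of inflammatory genes, and the glucocorticoid receptor is known to restrain it. Per the labels' protocols, both libraries came from tissue digested with warm enzymes before the sort, a treatment known to induce Fos and Jun, and no undigested sample is analysed here.

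The promoters are shown first, because immediate early genes are switched on through elements close to the start of transcription and 6 of the 9 members share the letters TGACG there. Sequences are from RefSeq (GRCm38.p6), each of the 150 bases before the start site and written 5′ to 3′ along the gene's own strand, and 9 of 9 members matched, with 11 start sites in all because Maff has 3. Capitals mark TGACG, the core that CREB and ATF proteins recognise, or TGACNTCA, where N is any base. Both were sought on either strand, so CGTCA in capitals is TGACG read from the other strand. Of the TGACNTCA forms only TGACGTCA is a palindrome and holds TGACG, so the Jun form TGACATCA does neither. The Fos window is chr12:85473740-85473889 (plus strand), Fosb chr7:19310046-19310195 (minus), Jun chr4:95052223-95052372 (minus), Junb chr8:84978749-84978898 (minus), Atf3 chr1:191183334-191183483 (minus), and the Maff window is that of its middle start site, chr15:79347370-79347519 (plus).
Fos: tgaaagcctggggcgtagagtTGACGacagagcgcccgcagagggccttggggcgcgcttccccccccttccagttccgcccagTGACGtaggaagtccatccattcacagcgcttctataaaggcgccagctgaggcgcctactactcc
Fosb: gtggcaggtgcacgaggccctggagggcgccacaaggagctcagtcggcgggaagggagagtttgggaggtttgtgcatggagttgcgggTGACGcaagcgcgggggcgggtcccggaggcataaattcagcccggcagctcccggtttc
Jun: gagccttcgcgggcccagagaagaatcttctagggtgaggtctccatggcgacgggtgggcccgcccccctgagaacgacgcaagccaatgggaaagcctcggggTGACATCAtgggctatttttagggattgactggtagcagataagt
Junb: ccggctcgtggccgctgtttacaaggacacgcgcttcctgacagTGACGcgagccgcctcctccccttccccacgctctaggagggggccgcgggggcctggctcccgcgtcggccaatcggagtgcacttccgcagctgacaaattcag
Atf3: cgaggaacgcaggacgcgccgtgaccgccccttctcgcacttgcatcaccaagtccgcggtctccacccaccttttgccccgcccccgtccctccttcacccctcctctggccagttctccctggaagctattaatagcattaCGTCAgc
Maff: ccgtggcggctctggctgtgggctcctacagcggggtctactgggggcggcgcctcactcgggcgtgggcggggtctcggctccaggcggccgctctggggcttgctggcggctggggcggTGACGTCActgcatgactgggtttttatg
TGACG occurred in windows of Fos, Fosb, Junb, Atf3, Maff and Batf, against 13.3% of 32851 RefSeq promoter windows of the same length. TGACNTCA occurred in Jun, as TGACATCA, and in Maff, against 5.70% of the windows, and the Maff form TGACGTCA also holds TGACG on both strands, so the searches overlap there. TGACTCA, the site that Fos and Jun pairs bind best, occurred in 0 of the 9 members, against 2.84% of windows, and TATAAA in Fos alone, against 7.57%. Fosl2 and Jund held none of these letters in their windows. Several windows do not adjoin the gene positions given below. The Jund window, chr8:70697589-70697738 (plus strand), lies before a gene position that starts at 70698949. The Atf3 window lies inside its gene position, which on the minus strand begins at 191218039. The windows of Fosl2 and the printed one of Maff also lie inside theirs. Those of Fosb and Batf overlap the ends of theirs, and that of Junb stops short. The bases just before the Jund, Atf3, Fosl2 and Junb gene positions were not searched. A match describes the letters only.

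After filtering, the vehicle library held 10500 cells and 49325067 UMIs (unique molecular identifiers, tags by which every captured transcript is counted without its PCR copies), and the corticosterone library 17883 cells and 85103539 UMIs. The median cell had 3220.5 and 3961 UMIs, with 2.67% and 4.20% of them mitochondrial. Cells were clustered with the 9 members left out, and clusters were named from marker genes: 8280 vehicle and 15450 corticosterone cells were microglia-like, and P2ry12, which defines microglia, had a UMI in 99.4% and 99.5% of them. The libraries stood apart within that class, since cluster 1 held 7473 vehicle and 399 corticosterone cells, while cluster 0 held 578 and 7306 and cluster 2 held 216 and 7377. Cluster 2 was led by Ccl3, Ccl4, Tnf and Egr3, inflammatory and immediate early genes. The libraries shared 101 cell barcodes.

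In microglia-like cells the AP-1 transcripts were abundant in both libraries, and most members were lower in the corticosterone library. The 9 genes gave 2.74% of all UMIs in vehicle and 2.34% in corticosterone, or 27441 and 23413 CPM (UMIs per 1000000 UMIs of the summed total), a log2 ratio of -0.23 (95% interval -0.233 to -0.225). Fosb and Atf3 were the members at least 1.5-fold lower, 2 of 9, where 4.76% of all 6614 genes with a mean of at least 20 CPM lay past that size. No member, 0 of 9, was at least 1.5-fold higher, against 5.31% of all genes. With TMM factors in place of total UMIs the shares of all genes were 3.37% lower and 7.49% higher, with DESeq2 factors 3.07% and 8.12%, and Fosl2 then passed 1.5-fold higher while Fosb and Atf3 stayed past it lower. In all, 6 members were lower and 3 higher, where 50.1% of the 6614 genes were lower. Of the 9, 7 reached the mean of 20 CPM (Fosl2 and Batf did not). Of the counting intervals 8 of 9 left out 0, and no share over all genes stands beside that count. The median log2 ratio over the 9 was -0.18, beside -0.00 over all genes. An interval for that median by rank of the members, which is no counting interval, ran from -0.83 to 0.18 and so held 0. These directions depend on which vehicle cells enter: with cluster 1 left unnamed, as a naming rule over both libraries together has it, the family's log2 ratio was 0.046, Fos was at 0.14, Junb at 0.10 and Jun at -0.0056, while Fosb stayed at -0.67 and Atf3 at -0.42.

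Fos (ENSMUSG00000021250, chr12:85473890-85477273 in GRCm38, plus strand, 4 exons) encodes the partner that gives AP-1 its strongest activation domain. It stood at 6659 CPM in vehicle against 5870 CPM in corticosterone, a log2 ratio of -0.18 (-0.19 to -0.17), and that ratio lay at percentile 26.0 of the 6614 genes. Fosb (ENSMUSG00000003545, chr7:19302696-19310051, minus strand) encodes a close relative known for a truncated stable form, deltaFosB, that gathers in neurons under repeated stimulation. Fosb stood at 725 CPM in vehicle against 399.9 CPM in corticosterone, 0.551 times the vehicle level (log2 -0.86, -0.88 to -0.83), at percentile 1.75 of those genes. The counts are per gene, so its long and short forms cannot be told apart. Fosl2 (ENSMUSG00000029135, chr5:32135801-32157842, plus strand), which encodes Fra-2, a Fos relative without that activation domain, was sparse. It gave 281 UMIs (8.42 CPM) in vehicle and 891 UMIs (12.3 CPM) in corticosterone, a log2 ratio of 0.54 (0.35 to 0.74), opposite in direction to Fos and Fosb. By depth of the cell, Fosl2 was higher in 3 bins, those from 2000 UMIs upward. It was lower in the 2 shallower ones, at -1.05 (-6.46 to 1.69) and -0.37 (-1.67 to 0.81), where the intervals reached 0.

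Jun (ENSMUSG00000052684, chr4:95049034-95052222, minus strand, 1 exon) encodes the main activating partner, the target of the JNK kinases. Its level was 9627 CPM in vehicle against 8061 CPM in corticosterone (log2 -0.26, -0.26 to -0.25). Junb (ENSMUSG00000052837, chr8:84974484-84978718, minus strand, 1 exon), a weaker activator that can hold Jun in check, stood at 5950 and 5274 CPM (log2 -0.17, -0.18 to -0.17). Jund (ENSMUSG00000071076, chr8:70698949-70700616, plus strand, 1 exon) is the steadily expressed Jun gene of resting cells, and it was the abundant member that ran the other way. Jund stood at 2530 CPM in vehicle against 2693 CPM in corticosterone, a log2 ratio of 0.09 (0.08 to 0.10). The pattern among Jun genes was thus a lower level of both inducible members and a slightly higher level of the steady one, each by less than 1.5-fold.

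Atf3 (ENSMUSG00000026628, chr1:191170296-191218039, minus strand) encodes a stress-induced factor that mostly represses, among others, cytokine genes of macrophages. It stood at 1892 CPM in vehicle against 1062 CPM in corticosterone, 0.562 times the vehicle level (log2 -0.83, -0.85 to -0.82), at percentile 1.86 of all genes. Maff (ENSMUSG00000042622, chr15:79346621-79359076, plus strand) encodes a small MAF protein, which lacks an activation domain and pairs with NRF2 and BACH proteins. It was sparse, at 38.3 CPM in vehicle against 27.5 CPM in corticosterone (log2 -0.48, -0.58 to -0.38). Batf (ENSMUSG00000034266, chr12:85686669-85709087, plus strand) encodes a short zipper protein that pairs with Jun proteins and works with IRF4 and IRF8 in immune cells. Batf stood at 10.9 CPM in vehicle (363 UMIs) and 12.3 CPM in corticosterone (892 UMIs), and the interval of its log2 ratio of 0.18 (-0.00 to 0.36) reached 0.

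**Figure D1:**
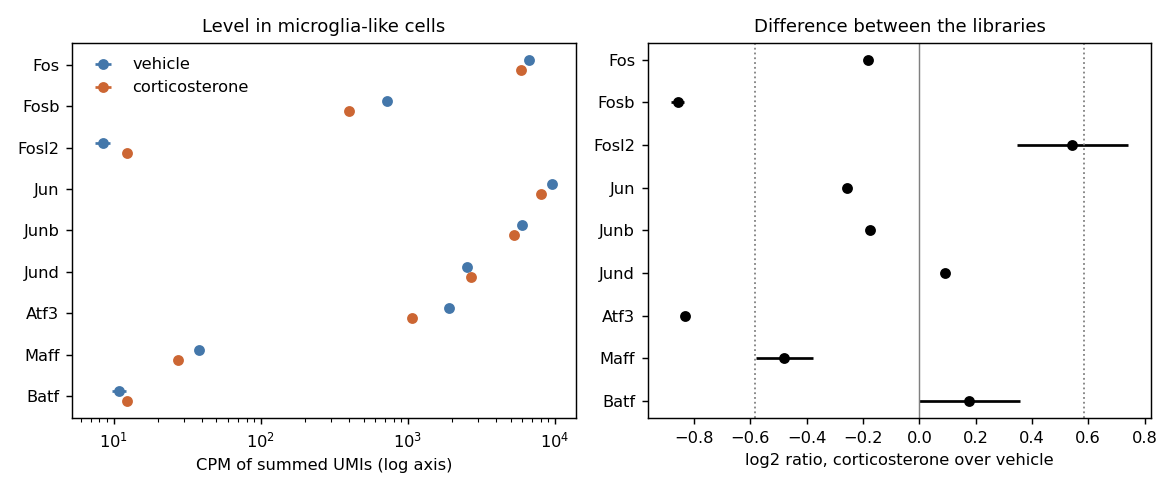
Left, CPM of each member in microglia-like cells (log axis) by library, with 95% Poisson intervals of the counts, and right, the log2 ratio of corticosterone over vehicle with its counting interval and dotted lines at 1.5-fold. Fosb at -0.86 and Atf3 at -0.83 lie past the lower line, and Fosl2 at 0.54 comes nearest the upper one. Levels are not comparable between genes.

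Shares of cells with a UMI were compared at equal depth. Each cell was thinned to 1000 UMIs, which left 7621 vehicle and 15352 corticosterone microglia-like cells and dropped 659 and 98 shallower ones. Atf3 had a UMI in 71.7% of thinned vehicle cells (70.7 to 72.7%) and 48.2% of corticosterone cells (47.4 to 49.0%). Fosb had one in 46.1% (45.0 to 47.2%) and 27.2% (26.5 to 28.0%). A smaller share of corticosterone than of vehicle cells thus held a UMI of either gene. Fos was found in 96.2% and 91.4% of cells, Jun in 99.6% and 98.1%, Junb in 98.1% and 95.1%, and Jund in 87.5% and 85.5%, so these members were near saturation. The Jund share was the lower one in corticosterone although its CPM was higher, and no order is read from it. Maff was found in 3.75% and 2.55%, Fosl2 in 0.919% and 1.34%, and Batf in 1.22% and 1.32% of cells, levels near that of a single UMI from which no change is read. Without thinning the Atf3 shares were 87.4% and 74.5%, the Fosb shares 74.9% and 58.6%, and the Fos shares 98.9% and 97.0%, at median depths of 3166 and 4004 UMIs. Erythroid cell-like barcodes, which should lack most of these transcripts, were few (17 thinned vehicle barcodes), and of these 41.2% held Fos, 29.4% Fosb, 47.1% Jun and 23.5% Atf3. Their median depth before thinning was 3655 UMIs, and the microglia-like vehicle shares of Fos, Jun and Atf3 lay above the upper bounds there of 67.1%, 72.2% and 49.9%, whereas the Fosb share did not exceed its bound of 56.0%. In corticosterone 3 such barcodes were left at this depth, too few for a bound. In summed UMIs, Fosb stood at 234 CPM (145 to 358) in the 25 erythroid cell-like vehicle barcodes, under its level in microglia-like cells of both libraries. Atf3 stood there at 379 CPM (262 to 529), and at 114 CPM (13.8 to 410.4) in the 7 corticosterone barcodes, under the 1892 and 1062 CPM of microglia-like cells. Erythroid markers gave 80.9% and 71.6% of the UMIs of these barcodes. This dilutes other transcripts in CPM and in thinned shares, so neither sets a background level. Per 100 UMIs of the 10 microglia markers, erythroid cell-like vehicle barcodes had 4.77 (2.95 to 7.30) of Fosb and 7.73 (5.35 to 10.8) of Atf3. Microglia-like vehicle cells had 2.05 and 5.35. Fos and Jun were at 15.0 (11.6 to 19.1) and 26.4 (21.8 to 31.6) against 18.8 and 27.2.

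The spread among cells was compared at equal depth. At 1000 UMIs per cell, the summed members had a median of 27 UMIs in vehicle (5th to 95th percentile 13 to 45) and 22 in corticosterone (8 to 42), and the variance divided by the mean was 3.44 and 4.76. For Fos the median was 6 UMIs (1 to 15) in vehicle and 5 (0 to 15) in corticosterone, with a variance over mean of 2.99 and 3.82. The upper ends were thus alike and the lower ends were not. Jun had medians of 9 and 8 and Junb of 6 and 5, with a higher variance over mean in corticosterone for each (2.30 and 2.74 for Jun, 1.85 and 2.22 for Junb). The ratio was also higher in corticosterone for Jund (1.49 and 1.71) and Atf3 (2.01 and 2.14). It was lower for Fosb (1.62 and 1.499), Maff (1.13 and 1.09) and Batf (1.05 and 1.03). The ratio depends on the mean, which for Fosb was 0.786 and 0.393 UMIs. The top decile of cells held 42.2% and 56.1% of the Fosb UMIs, so its lower ratio is not read as less spread. These values describe the cells of 1 library each.

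Across cell classes the family was present in every class, and its level was highest in microglia-like and border-associated macrophage-like cells (macrophages of the meninges and vessel walls). Border-associated macrophage-like cells (1184 vehicle, 787 corticosterone) had 25610 and 22065 CPM for the 9 members together, neutrophil-like cells (435 and 397) 18213 and 12929 CPM, monocyte-like cells (52 and 113) 17000 and 15872 CPM, and an unnamed cluster of low-UMI barcodes (524 and 1129) 15278 and 15947 CPM. In vehicle all neighbours in that order were apart beyond their counting intervals, and in corticosterone monocyte-like and low-UMI barcodes did not differ beyond theirs and both lay above neutrophil-like cells. Microglia transcripts were found in these classes as well: the 10 microglia markers lay, relative to microglia-like cells, at 0.859 and 0.649 times in border-associated macrophage-like cells, 0.595 and 0.355 times in neutrophil-like cells, 0.367 and 0.438 times in monocyte-like cells and 0.552 and 0.581 times in low-UMI barcodes. Per 100 UMIs of those markers, the family had 77.6 and 72.5 UMIs in microglia-like cells, 84.3 and 105 in border-associated macrophage-like cells, 86.5 and 113 in neutrophil-like cells, 131 and 112 in monocyte-like cells and 78.3 and 85.0 in low-UMI barcodes. In erythroid cell-like barcodes (25 and 7, with 80.9% and 71.6% of UMIs from erythroid markers) the ratio was 75.9 (68.0 to 84.5) and 119 (86.4 to 159.6). How much of the AP-1 signal outside the microglia-like class came from free or mixed-in microglia RNA was not tested.

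By member, Fosl2 was higher in neutrophil-like than in microglia-like cells. Fosl2 stood at 40.1 CPM in neutrophil-like cells of the vehicle library against 8.42 CPM in microglia-like cells, 4.76 times as much (log2 2.25, 1.90 to 2.59), and at 55.8 against 12.3 CPM in the corticosterone library, 4.55 times (log2 2.18, 1.91 to 2.45). Per microglia-marker UMI the Fosl2 excess was larger, 7.99 and 12.8 times the microglia-like ratio. It was seen in both neutrophil-like clusters, at 43.7 and 68.9 CPM in cluster 5 (led by Clec4d and Cxcr2) and 34.9 and 40.0 CPM in cluster 7 (led by Camp, Ngp and Ltf, granule genes of young neutrophils). Monocyte-like cells also held more Fosl2 than microglia-like cells, 38.5 CPM from 7 UMIs in vehicle and 33.3 CPM from 35 UMIs in corticosterone. Jun ran the other way: it stood at 9627, 8809, 5731 and 4869 CPM in microglia-like, border-associated macrophage-like, neutrophil-like and monocyte-like cells of the vehicle library and at 8061, 7339, 3251 and 4180 CPM in corticosterone.

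Between libraries, Atf3 was lower in corticosterone in every class with at least 50 cells. Its log2 ratio was -0.68 (-0.72 to -0.64) in border-associated macrophage-like cells, where 1 of 9 members was at least 1.5-fold lower (background 5.11% of genes) and 0 at least 1.5-fold higher (6.6%). In neutrophil-like cells it was -1.24 (-1.34 to -1.14), and 3 of 9 members, Atf3, Jun and Maff, were at least 1.5-fold lower (background 15.8%), with Batf past that size the other way (8.97%). Maff (59 and 30 UMIs) and Batf (25 and 38 UMIs) were both under the mean of 20 CPM that the genes of the background reached. In monocyte-like cells it was -0.55 (-0.75 to -0.34), under 1.5-fold, where Fosb and Batf, 2 of 9, were at least 1.5-fold lower (background 18.1%) and Maff, on 1 and 17 UMIs, higher (15.8%). In the low-UMI barcodes it was -0.43 (-0.54 to -0.32), with 1 member, Maff, past the lower size (background 8.93%) and Batf past the upper (11.2%), on 6 and 41 UMIs, under the mean of 20 CPM and with an interval of -0.34 to 2.43. Fosb was lower in each of these classes too, from -0.25 in border-associated macrophage-like cells through -0.43 and -0.44 in low-UMI barcodes and neutrophil-like cells to -0.92 in monocyte-like cells. Different clusters held most neutrophil-like cells in the libraries, cluster 7 in vehicle (230 of 435) and cluster 5 in corticosterone (275 of 397). Within cluster 5 Jun was at 7357 and 4883 CPM and Atf3 at 1514 and 805 CPM. Within cluster 7 Jun was at 3399 and 1292 CPM and Atf3 at 686 and 128 CPM. Both genes were thus lower in CPM in corticosterone in both clusters. The microglia markers were lower there too, at 27152 and 17036 CPM in cluster 5 and 12304 and 4782 CPM in cluster 7. Per 100 UMIs of those markers, neutrophil-like cells had 27.2 and 28.3 UMIs of Jun and 5.58 and 4.34 of Atf3. The part of microglia RNA in these differences was not tested.

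Levels in the low-UMI cluster differed from those over all microglia-like cells. Its cells had a median of 958.5 and 1228 UMIs and were led by Kcnq1ot1, a nuclear noncoding RNA, and it carried fewer Fos, Jun, Junb and Jund transcripts per UMI than microglia-like cells but more Fosb and Maff. Fosb stood at 1125 CPM in vehicle against 832 CPM in corticosterone, 1.55 and 2.08 times the microglia-like level. Maff stood at 76.2 and 44.4 CPM, 1.99 and 1.62 times that level, from 49 and 104 UMIs. Fosl2 stood at 18.7 and 20.9 CPM, 2.22 and 1.70 times, from 12 and 49 UMIs. Jund stood at 1273 and 1674 CPM, 0.503 and 0.621 times. Microglia-like vehicle cells of 500 to under 1000 UMIs also had high Fosb, at 1010 CPM, and Maff, at 60.8 CPM (40.7 to 87.3). In vehicle the Fosb and Maff levels are thus not particular to the cluster. In corticosterone such a match was not seen for Fosb. Microglia-like cells there had Fosb at 132 CPM, on 10 UMIs, in that bin and at 235 CPM from 1000 to under 2000 UMIs. Both values lay under the 832 CPM of the cluster beyond the counting intervals. Maff had 0 and 11 UMIs in those corticosterone bins, at 0 and 10.8 CPM. The mitochondrial share of the low-UMI barcodes was also high, with medians of 6.90% and 9.26%, and its part in the cluster's levels was not tested.

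**Figure D2:**
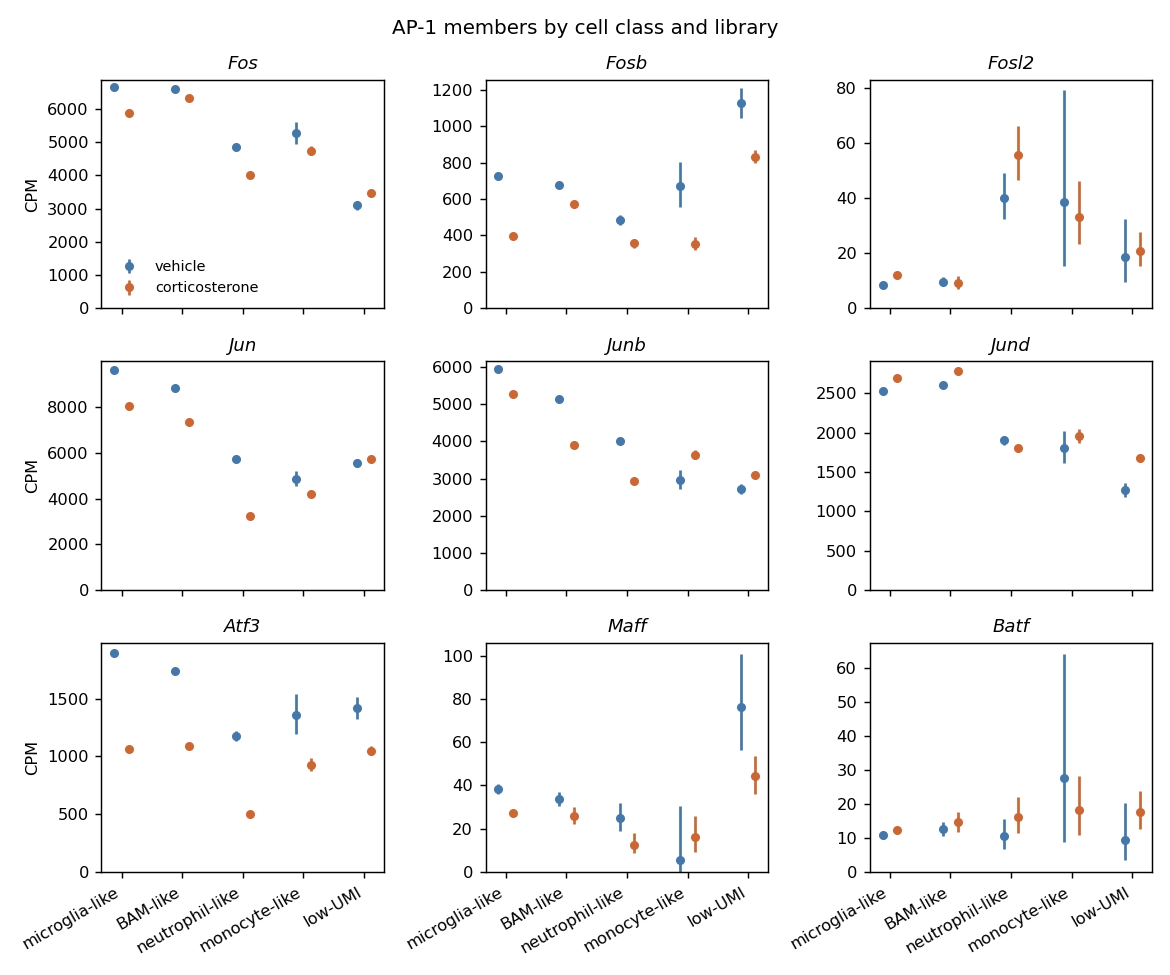
CPM of each member by cell class and library, with 95% Poisson intervals of the counts (BAM-like is border-associated macrophage-like, low-UMI the unnamed cluster). Fosl2 is highest in neutrophil-like and monocyte-like cells, Fosb and Maff in low-UMI barcodes of the vehicle library, and Atf3 is lower in corticosterone in each class.

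The AP-1 signal depended on how many UMIs a cell had, and more so in the corticosterone library. In cells of 500 to under 1000, under 2000, under 4000, under 8000 and at least 8000 UMIs, the family was at 20736, 26238, 28121, 27896 and 26666 CPM in vehicle. In corticosterone the values were 8338, 15220, 23901, 23494 and 23188 CPM. From 2000 UMIs upward each library was nearly level, and below that depth AP-1 transcripts were scarcer, 2.87-fold between lowest and highest bin in corticosterone and 1.36-fold in vehicle. The shallow bins held few corticosterone cells, 98 and 635 against 659 and 1216 in vehicle. In the shallowest bin the median mitochondrial share was 8.06% in corticosterone and 1.86% in vehicle, and its part in the difference was not tested. The family's log2 ratio accordingly ran from -1.31 and -0.79 in the shallow bins to -0.23, -0.25 and -0.20 in the deeper ones.

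Among the 6 abundant members, Fosb was the one that stood highest in the shallowest cells of one library and lowest in those of the other. It stood at 1010, 891, 789, 736 and 585 CPM in vehicle from the shallowest to the deepest bin, and at 132, 235, 385, 413 and 406 CPM in corticosterone. Its log2 ratio was -2.94 (-4.01 to -2.05, on 10 corticosterone UMIs), -1.92, -1.04, -0.84 and -0.52 (-0.58 to -0.47), so the size depended on depth and the direction did not. Atf3 stood at 1528, 1683, 1947, 1950 and 1816 CPM in vehicle and 184, 478, 940.0, 1134 and 1121 CPM in corticosterone, with log2 ratios of -3.05, -1.82, -1.05, -0.78 and -0.70. Fos ran from 4981 CPM in the shallowest bin to between 6672 and 6823 CPM in the 3 deepest in vehicle, and from 1778 to between 5809 and 5985 CPM in corticosterone. Its log2 ratio settled at -0.20, -0.19 and -0.18 in those 3 bins. Jund changed direction, at -0.55 and -0.45 in the shallow bins and 0.04, 0.11 and 0.12 in the deeper ones.

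**Figure D3:**
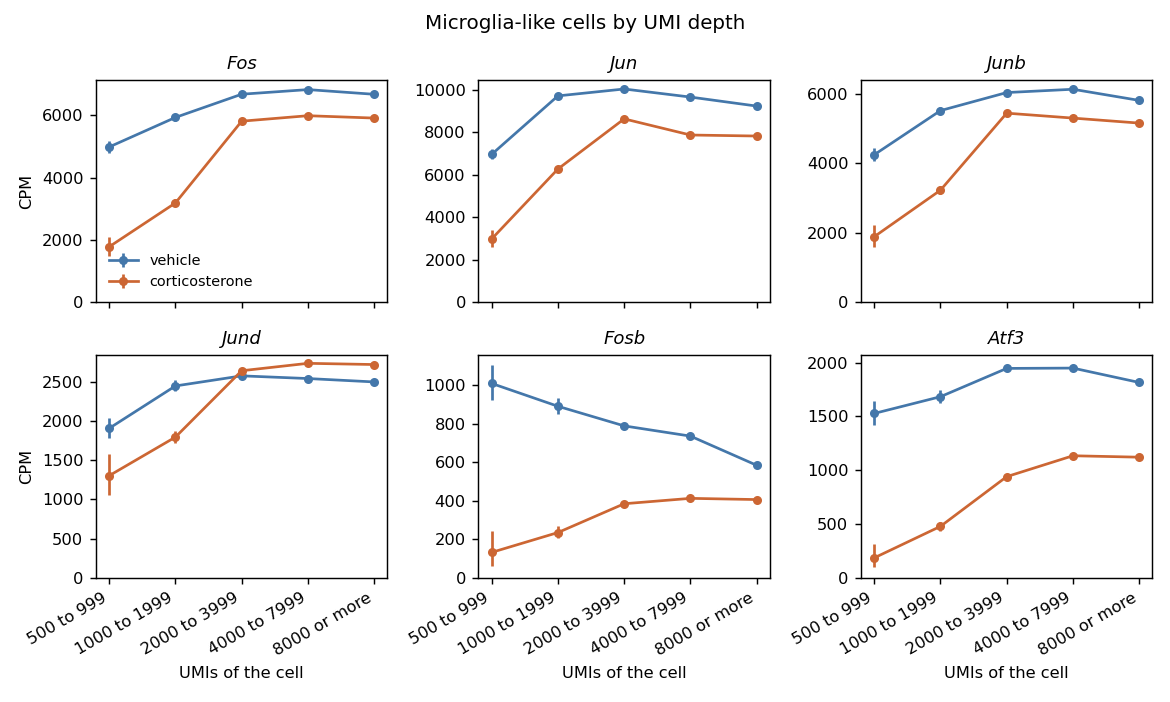
CPM of 6 members in microglia-like cells by the number of UMIs of the cell, per library, with 95% Poisson intervals of the counts. In corticosterone each of the 6 is lowest in the shallowest bin, whereas vehicle Fosb is highest there, at 1010 CPM, and lowest in the deepest bin, at 585 CPM.

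The family's level also fell as the mitochondrial share of the cells rose. In cells under 2%, 2 to 4%, 4 to 6% and 6 to 10% mitochondrial UMIs the family was at 29748, 27746, 24386 and 20480 CPM in vehicle and 25479, 24668, 23003 and 20104 CPM in corticosterone. Corticosterone cells had the higher shares, with 825 of 15450 under 2% against 2817 of 8280 in vehicle. The bin of 10 to 20%, with 34 and 116 cells, had 13380 and 9926 CPM and is not read further. Within the 4 lower bins the difference between libraries was seen for Fosb (log2 -0.92 to -0.63, lower in 4 of 4) and Atf3 (-0.92 to -0.50, 4 of 4), and Jund was higher in 4 of 4 (0.14 to 0.25). Jun was lower in 4 of 4 by little (-0.16 to -0.10). Fos was lower in 3 of 4, from -0.23 under 2% to 0.03 in the bin of 6 to 10%, and Junb likewise from -0.30 to 0.08.

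Within the 3 large microglia-like clusters the picture separated into those same groups. Fos was at 0.20, 0.08 and 0.08 (log2 ratio, clusters 0, 1 and 2), Jun at 0.03, -0.05 and -0.00, and Junb at 0.09, 0.01 and -0.01, so a difference of the pooled size and direction was not seen for these genes within a cluster. Fosb was at -0.69, -0.28 and -0.56 and Atf3 at -0.34, -0.54 and -0.64, lower in corticosterone in 3 of 3 clusters. Jund was higher in 3 of 3, at 0.27, 0.38 and 0.31. Maff was lower in 3 of 3 (-0.11, -0.56 and -1.09), on as few as 22, 39 and 54 UMIs in the smaller library of each. The family as a whole was at 0.07, 0.01 and -0.01. Each cluster is mostly 1 library, and although the 9 members did not enter the clustering, other immediate early genes did, so cells of a cluster are matched on genes that move with AP-1.

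**Figure D4:**
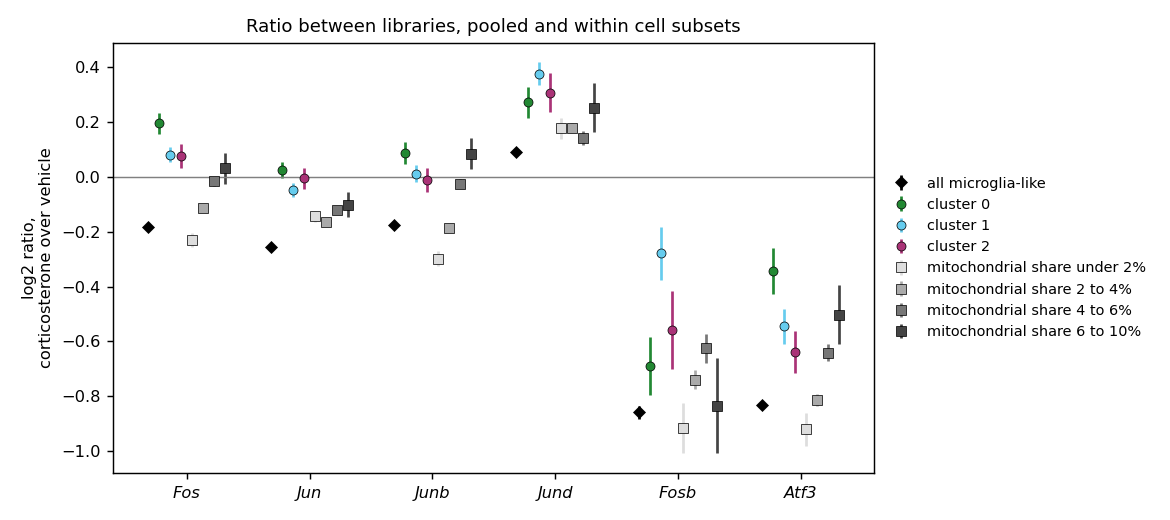
Log2 ratio of corticosterone over vehicle for 6 members over all microglia-like cells (diamonds), within clusters 0, 1 and 2 (circles) and within bins of mitochondrial share (squares), with counting intervals. Fosb and Atf3 lie below 0 in every subset, Jund above 0, and within clusters Jun and Junb lie within 0.1 of 0 and Fos between 0.08 and 0.20.

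Among cells of a library, the members varied together only weakly. Pearson's r of log2(count + 1) at 1000 UMIs per cell, over 7621 vehicle and 15352 corticosterone cells that share a library, was highest for Fos and Jun, at 0.20 in vehicle and 0.29 in corticosterone. Over 36 pairs the median was 0.009 and 0.012, and 11 and 13 pairs reached 0.1, all of them among Fos, Fosb, Jun, Junb, Jund and Atf3. Fosl2, Maff and Batf were too sparse at this depth for a correlation to be read. With the sum of the other 8 members, Fos had r of 0.29 and 0.43, Jun 0.28 and 0.38, Junb 0.22 and 0.35, Jund 0.22 and 0.34, and Fosb and Atf3 0.16 and 0.23 each. In cells thinned to 2000 UMIs instead, the highest pair was Fos and Fosb in vehicle (0.24) and Jun and Jund in corticosterone (0.34). The leading pair thus depended on the depth. Such values in sparse counts are a description and no finding.

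**Figure D5:**
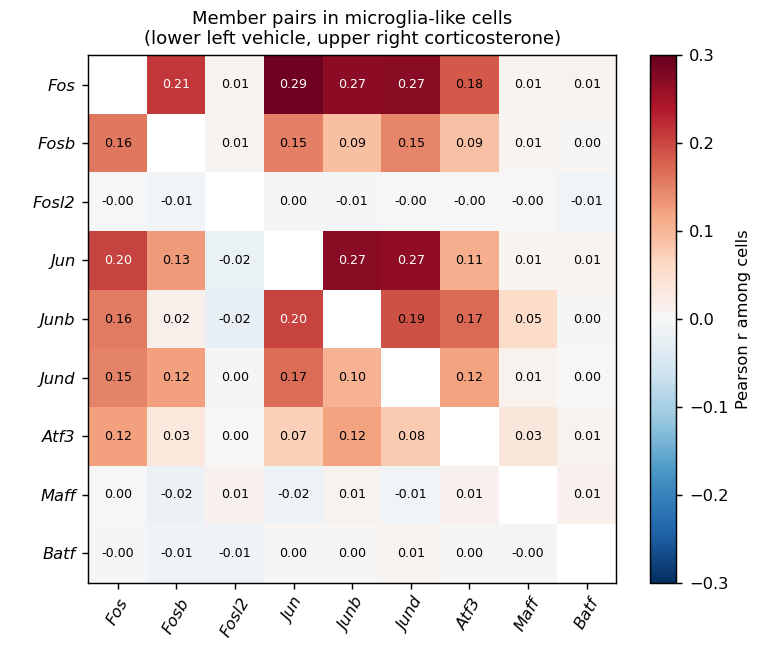
Pearson's r between members over microglia-like cells thinned to 1000 UMIs, vehicle below the diagonal and corticosterone above it. Fos and Jun hold the highest value, 0.20 in vehicle and 0.29 in corticosterone, and the rows of Fosl2, Maff and Batf are near 0.

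The 10 genes most alike to the summed members among 1535 abundant genes, by the lower of the r values of the libraries, were mostly other immediate early genes. Egr1, a zinc-finger factor induced with Fos, came first with r of 0.28 in vehicle and 0.40 in corticosterone. Zfp36, which encodes a protein that speeds decay of AU-rich mRNAs, followed at 0.27 and 0.42, and Dusp1, a phosphatase that switches off MAP kinases, at 0.24 and 0.38. H3f3b (0.20 and 0.26), Nfkbia (0.19 and 0.27), Btg2 (0.17 and 0.29), Ier5 (0.17 and 0.23), Rhob (0.17 and 0.20) and Ier2 (0.16 and 0.27) were also among them. The 95th percentile of that lower r over all 1535 genes was 0.03. Between libraries these genes did not share a direction: Dusp1 stood at 1708 CPM in vehicle against 2355 CPM in corticosterone (log2 0.46) and Ier2 at 1844 and 2233 CPM (0.28), whereas Rhob stood at 2787 and 1733 CPM (-0.69) and Egr1 at 6782 and 5425 CPM (-0.32).

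Other genes of the pathway were read from lists, with counts of those at a mean of at least 20 CPM beside the backgrounds of 5.31% higher and 4.76% lower by 1.5-fold. The list of other zipper proteins, not all of them partners of the members, had 26 genes, of which 20 were measured at that level. Of these, 0 were past 1.5-fold higher and 4 past it lower, Atf4, Maf, Bach2 and Ddit3. In all, 7 were higher and 13 lower (median log2 -0.16). They ranged from Batf3, a partner of Jun in dendritic cells, at 29.5 and 42.0 CPM (0.51) to Bach2, a repressor that pairs with small MAF proteins, at 49.1 and 27.8 CPM (-0.82). MAP kinases and the kinases above them, 17 of 20 measured, were balanced at 8 higher and 9 lower with a median of -0.00, and 1 was past 1.5-fold higher, Mapkapk2, the kinase downstream of p38, at 83.6 and 131 CPM (0.65). The lowest was Map3k1, a kinase above JNK, at 64.2 and 45.9 CPM (-0.48). Factors that act on the Fos and Jun promoters were 2 higher and 9 lower of 11 measured, none past 1.5-fold, from Creb1 at 0.14 to Crem at -0.44 (median -0.21); the other higher one was Crtc2. Genes named for a small count, and not as an end of their list, were chosen after their values were seen.

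Phosphatases and feedback genes, 9 of 13 measured, were 2 higher and 7 lower, with Dusp2, Spry1, Zfp36l1 and Tsc22d3, 4 in all, past 1.5-fold lower and Dusp1 and Dusp16 higher (median log2 -0.27). Dusp1 was the highest of them, and Tsc22d3, the glucocorticoid-induced gene GILZ whose protein binds AP-1, was the lowest, at 107.5 CPM in vehicle against 35.1 CPM in corticosterone (log2 -1.62, -1.69 to -1.54). Among other immediate early genes, 18 of 21 measured, 7 were higher and 11 lower. Past 1.5-fold were Ier3 and Myc, 2 higher, and Egr3, Nr4a1, Klf2 and Rhob, 4 lower, with a median of -0.28 and a range from Ier3, a survival gene, at 1668 and 2628 CPM (0.66) to Klf2, a factor that quiets macrophages, at 473 and 159 CPM (-1.57). Genes known as AP-1 targets stood apart in direction from the members: of 13 measured of 22, 11 were higher and 2, Ccl3 and Hmox1, lower, with 3, Il1b, Ccl2 and Plaur, past 1.5-fold higher and a median of 0.44. Il1b, the gene of interleukin-1 beta, was the highest at 28.5 and 289.6 CPM (3.35, 3.25 to 3.44), and Hmox1, which encodes heme oxygenase, the lowest at 60.9 and 42.0 CPM (-0.53). Of 10 ligases and partners of AP-1 proteins, 6 were measured, 2 (Irf8 and Trib1) higher and 4 lower, none past 1.5-fold, from Irf8 at 0.31 to Cop1 at -0.08 (median -0.03). Lists overlap, since Creb1, Crem, Atf2, Zfp36, Dusp1 and Jdp2 are each in 2 of them.

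Markers of other cells within the microglia-like class also differed between libraries. The 10 border-associated macrophage markers summed to 88.7 CPM in vehicle against 44.3 CPM in corticosterone (10 of 10 lower), the 10 neutrophil markers to 935 and 689.9 CPM, and the 8 endothelial markers to 46.4 and 8.69 CPM (8 of 8 lower), with none of these at 0. The 7 astrocyte markers summed to 213 and 94.6 CPM, with 1 at 0 in vehicle. Other lists were higher in corticosterone: the 9 monocyte markers summed to 24.2 and 46.0 CPM with none at 0, the 8 erythroid markers to 315 and 374 CPM with 2 and 1 at 0, and the 7 oligodendrocyte markers to 63.1 and 70.0 CPM with 1 at 0 in vehicle. The 10 microglia markers summed to 35364 and 32313 CPM (8 of 10 lower). Their part in the AP-1 differences was not tested.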

How the data were processed

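The authors deposited unnormalised UMI counts, whole numbers for each gene in each cell barcode, in 1 matrix per group, per the file headers. The submitters' processing notes name GRCm38 and bcl2fastq 2.19, and the aligner, the counting program and the rule that called cells are not given in the sources used here. The labels do not say whether counting used strand.

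Cells with at least 500 UMIs, 300 genes and at most 20% mitochondrial UMIs were kept, which removed 55 of 10555 vehicle and 230 of 18113 corticosterone barcodes. Scrublet called 0 doublets in either library, so it was taken not to have worked and none were removed. Counts were scaled to 10000 per cell, and 2000 variable genes without the members, 30 components, 15 neighbours and Leiden resolution 0.5 gave the clusters (scanpy 1.11.5, leidenalg 0.10.2). A cluster was named for a class when at least 3 of its markers were detected in 10% of cells at 2 times the level elsewhere in the library holding most of the cluster, or microglia-like when its microglia markers lay at 0.5 times the overall level or more. Clusters under 33.3% of their library's median UMIs, with no marker of the class among the 10 leading genes, stayed unnamed. So did clusters whose 10 leading genes held more markers of another class. With folds over both libraries that rule left cluster 1 unnamed, through 1 gene, the endothelial marker Pecam1. Taking folds within 1 library was chosen after seeing the data.

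UMIs were summed per library and class, scaled to CPM and compared as log2 ratios of corticosterone over vehicle with exact Poisson intervals, and shares have exact binomial (Clopper-Pearson) intervals, all at 95%. The scripts were tested on simulated data. Size rules (1.5-fold, mean CPM of at least 20) stand in for tests. Named genes are the 9 members, the highest and lowest of each other list, and the 10 genes of at least 100 CPM most alike to the members, of which 1 is not reported here. Other genes in the text lead a cluster or belong to a counted set. Positions are from GENCODE M21 (GRCm38) by gene identifier. Members and lists were chosen with earlier results of these data known. Alternatives covered scaling (edgeR 4.0.16 TMM and DESeq2 1.42.0 factors), cell choice, clustering, depth, averaging and thinning.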

Additional observations from a re-analysis of the deposited data

Results flagged for a closer look

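Jund differed in direction between classes. Its log2 ratio of corticosterone over vehicle was -0.074 (-0.13 to -0.01) in neutrophil-like cells and 0.09 in microglia-like cells, and the difference was not tested. Within the neutrophil-like class, Jund stood at 2459 CPM in vehicle against 2686 CPM in corticosterone in cluster 5, and at 1101 and 749 CPM in cluster 7.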

How the results depend on the processing

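Of 18 alternatives, 12 were planned and 6 were chosen after seeing the data (naming folds over both libraries, doublet scores, shared barcodes, the interferon-high cluster, the low-UMI cluster, mitochondrial weighting). Fosb, Fosl2, Jun, Jund, Atf3 and Maff kept their direction in 18 of 18, with Fosb from -1.04 to -0.67, Atf3 from -1.05 to -0.42 and Jun as near 0 as -0.0056 with naming over both libraries. Fos, Junb and Batf kept it in 17, the exception being naming over both libraries (0.14, 0.10 and -0.04), which leaves the largest vehicle cluster out. The family's log2 ratio was -0.13 with TMM factors, -0.11 with DESeq2 factors (these move the median of all genes to 0.10 and 0.12), -0.21 over all cells, -0.24 with a rule applied to each cell, -0.23 in cells of 2000 to under 4000 UMIs, -0.24 with depth bins weighted, -0.22 as a mean of cells, -0.21 without mitochondrial genes, 0.046 with naming over both libraries, -0.22 without the interferon-high cluster and -0.12 with mitochondrial bins weighted. The count of members at least 1.5-fold higher was 1 (Fosl2) in place of 0 with TMM, DESeq2, the stricter cell filter, cells of that depth, weighted depth bins, naming over both libraries, doublet scores and mitochondrial weighting. The count at least 1.5-fold lower was 1 with naming over both libraries. Without a filter on low counts, 9.78% of genes were past 1.5-fold higher and 23.5% past it lower. The causes were not tested. Depth limits Fosl2, Maff and Batf, each under 40 CPM. No paired analysis was possible because each group is 1 library.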
